A study of Mus musculus with 4 samples.

Results

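Sites were examined at which FoxP3 was found both with and without GATA1 and at which no RNA polymerase II (Pol II) peak lay. A site was taken when a FoxP3 peak from the FoxP3 and GATA1 culture shared at least 1 bp with a FoxP3 peak from the FoxP3 alone culture and no base with any Pol II peak. Of the 9011 FoxP3 peaks with GATA1, 642 met this rule. They covered 0.404 Mb, or 7.20% of the sequence in that list. The data are chromatin immunoprecipitation with sequencing (ChIP-seq) of primary mouse CD4+ Tconv cells, from lymph nodes of C57BL/6 animals aged 6 to 8 weeks. All cultures were activated with anti-CD3/CD28 beads and 20 U/ml of IL-2. In the first culture FLAG-FoxP3 and GATA1 had been introduced and FoxP3 was precipitated through its FLAG tag. The second received FLAG-FoxP3 without GATA1 and was precipitated in the same way. The third library was a Pol II precipitation with the N20 antibody. Its title and factor label give FLAG-FoxP3 and GATA1, whereas its description names only activated CD4 cells and Pol II. A whole cell extract from cells with no introduced factor was the control of all 3 lists and was not itself analysed here. There was 1 library per group, so no value below has a replicate check. Neither the number of mice per library nor the vector is stated in the labels.

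FoxP3 is a forkhead transcription factor that defines regulatory T cells and both raises and lowers the transcription of its targets. Conventional T cells of the mouse express little of it, so the FoxP3 studied here was the introduced, tagged protein. GATA1 is a zinc-finger factor of red cell, megakaryocyte and mast cell development. Pol II collects at the start sites of transcribed genes. Distal regulatory elements such as enhancers usually carry less of it, although some are transcribed too. No element type was assigned to any site here.

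The sites were chosen by the presence or absence of a peak in each list, and thus by the deposited scores that decided which peaks were listed. Values that follow from that choice are given as descriptions without a test. Among all FoxP3 peaks with GATA1, 35.2% were shared with the FoxP3 alone list and 50.3% had no Pol II peak, while 7.12% met both conditions. The 642 sites were 20.2% of the 3171 shared peaks (Wilson 95% interval 18.9 to 21.7). All shares carry this interval, which covers counting error over peaks only and not the variation between cultures. Counted as peaks of the FoxP3 alone list, the same rule also gave 642. The equal count does not mean the same set, since at 6 of the 642 sites the FoxP3 alone peak itself overlapped Pol II. At the border of the rule, 6 sites lay within 100 bp of a Pol II peak, the nearest at a gap of 5 bp. On the other side, the smallest Pol II overlap of a shared peak was 100 bp, at chr11:57906059-57906602. The smallest FoxP3 overlap among the 642 was 8 bp, and 3 FoxP3 peaks found only with GATA1 and off Pol II lay within 100 bp of a FoxP3 alone peak, the nearest at 48 bp. Positions are in the build of the peak lists with a first base of 1. That build is uncertain. It is mm8 by the submitters' processing notes, yet a peak on chromosome 7 reached base 152430305, which the mm8 chromosome 7 does not have. Genes and DNA sequence at these positions were not analysed here.

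The 642 sites spanned nearly the whole range of the deposited scores in each FoxP3 list. The score is the authors' value for each peak over the extract. It depends on library depth, which is unknown, so only its standing within its own list was read. Scores of a site in both lists are printed side by side below, but a gap between them was not read as a difference in binding. The FoxP3 alone score was the higher one at 557 of the 642 sites, or 86.8% (83.9 to 89.2), and at 89.2% of the shared peaks at Pol II. In the FoxP3 and GATA1 list the sites scored from 70.56 to 3100, with a median of 206 (quartiles 161 and 302), beside 195 over all 9011 peaks. Shared peaks at Pol II had a median of 269 (191 and 383) there, and peaks found only with GATA1 and off Pol II had 175 (144 and 218). The overlapping FoxP3 alone peaks, called partners here, scored from 96.2 to 3100 with a median of 416 (350 and 503). Over the whole FoxP3 alone list the median was 425, with 484 for its shared peaks at Pol II and 368 for its unshared peaks off Pol II. The sites thus stood near the middle of both lists, above the unshared peaks off Pol II and below the shared peaks at Pol II. In the FoxP3 and GATA1 list 31.3% of them (27.8 to 35.0) were in the top quartile of score, against 50.0% (48.1 to 52.0) of the shared peaks at Pol II. In the FoxP3 alone list 19.6% of the partners (16.7 to 22.9) were in the top quartile, against 37.9% (36.0 to 39.8).

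Standing in one list went only partly with standing in the other. There were 75 sites in the top quartile of both lists, or 11.7% (9.42 to 14.4), and 390 sites in neither, or 60.7% (56.9 to 64.4). Another 126 were in the top quartile only with GATA1 and 51 only with FoxP3 alone. Spearman's rho between the 2 scores was 0.42 over the 642 sites and 0.50 over the 2529 shared peaks at Pol II. These correlations are descriptions across peaks of the same pair of libraries, which share the extract. In the top quartile with GATA1 and the bottom quartile with FoxP3 alone were 27 sites, or 4.21%, and 11 were the reverse, or 1.71%. At Pol II these shares were 5.14% and 1.38%, while 29.0% of the shared peaks there were in the top quartile of both lists and 41.1% in neither.

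**Figure D1:**
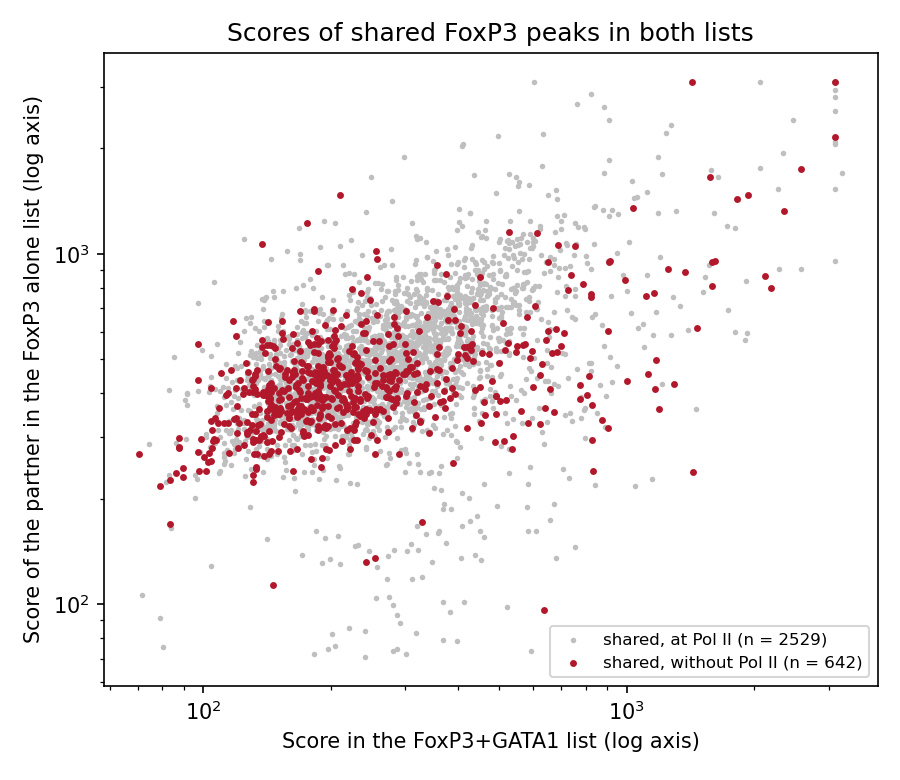
Deposited score of each shared FoxP3 peak in the FoxP3 and GATA1 list (x axis, log scale) and of its partner in the FoxP3 alone list (y axis, log scale). Red points are the 642 sites without Pol II and grey points the 2529 shared peaks at Pol II; red points reach the value of 3100 on both axes but are most frequent at middle and low scores.

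The share of shared peaks that lacked Pol II was not the same at all scores, and it was lowest in the seventh of 10 equal classes of rising score with GATA1. Of the lowest class by that score, 33.6% (28.7 to 39.0) lacked Pol II. The share was 15.1% (11.6 to 19.5) in the sixth class, 8.83% (6.18 to 12.5) in the seventh, 10.4% in the eighth and 11.4% (8.32 to 15.3) in the ninth. In the highest class, at scores of 563 and above, it was 22.4% (18.2 to 27.3), or 71 of 317 peaks. By FoxP3 alone score the shares were 25.8% (21.3 to 30.9) in the lowest class and 32.1% in the third. They were 8.83% (6.18 to 12.5) in the ninth and 9.78% (6.98 to 13.5) in the highest. The 71 strong sites of the FoxP3 and GATA1 list had a median score of 826 there and a median partner score of 603. The 246 shared peaks at Pol II of the same class had 763 and 883. Among shared peaks of score 1000 or more, 26 of 105 (24.8%, 17.5 to 33.8) lacked Pol II by the score with GATA1. At 500 or more it was 83 of 411 (20.2%, 16.6 to 24.3) and at 1500 or more 12 of 63 (19.0%, 11.2 to 30.4), both close to the share over all shared peaks. By the FoxP3 alone score the share at 500 or more was 163 of 1323 (12.3%). At 1000 or more it was 16 of 175 (9.14%) and at 1500 or more 5 of 68 (7.35%). A cutoff of 500 took 411 shared peaks by the score with GATA1 and 1323 by the FoxP3 alone score. The same cutoff thus marks a different standing in each list, so these shares were not compared between the lists.

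**Figure D2:**
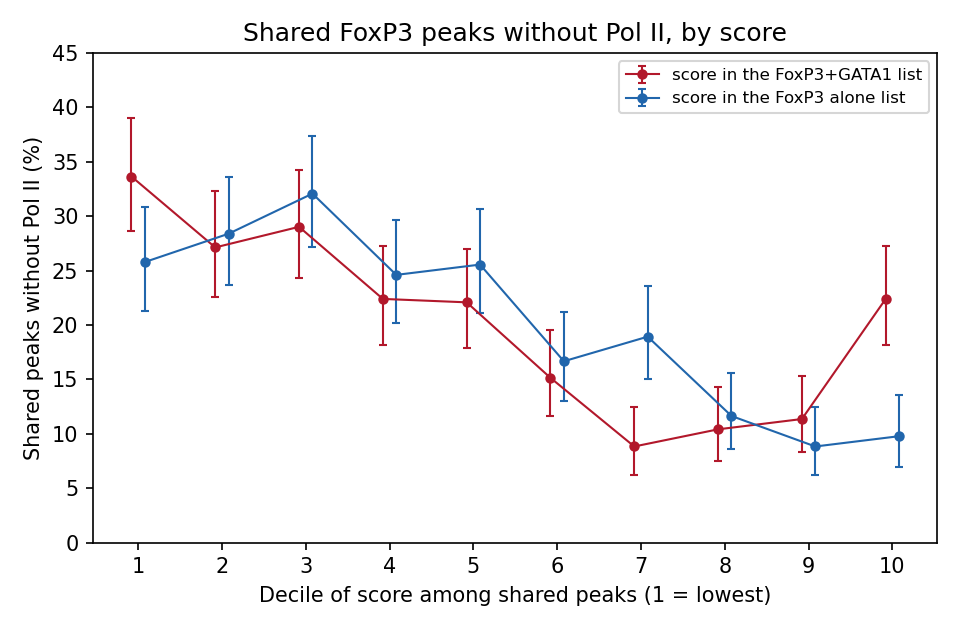
Share of shared FoxP3 peaks without a Pol II peak (y axis, percent) in 10 classes of rising score (x axis), by the score in each FoxP3 list; bars are Wilson 95% intervals. The share is 8.83% in the seventh class and 22.4% in the highest by the score with GATA1, and 9.78% in the highest class by the FoxP3 alone score.

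A site on chromosome 9 had the highest score reached by any of the 642 in each list, tied with another site in each. It was the peak at chr9:32161811-32164484, 2674 bp wide, with a score of 3100 with GATA1. Several of the highest peaks of each list tie at that value, whose meaning the labels do not state, so no order was read among them. The peak overlapped a pair of FoxP3 alone peaks, one of 601 bp at chr9:32162108-32162708 with a score of 553.5 and one of 1415 bp at chr9:32162727-32164141 with 3100. The nearest Pol II peak was 10224 bp away and scored 152.2. That Pol II peak, at chr9:32151118-32151586, coincided with a FoxP3 alone peak that had no counterpart with GATA1. The chromosome 9 site was the only one of the 642 with 3100 in both lists. Whether it holds repeated sequence or sequence of an introduced construct was not analysed here, so its scores are not shown to come from binding.

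A score of 3100 with GATA1 was also reached at chr18:42717579-42718679, whose partner scored 2150 and whose nearest Pol II peak was 45636 bp away. The site at chr3:19766601-19767404 scored 2581 with GATA1 and 1752 without. Its FoxP3 peaks began at the same base in both lists. At chr17:50080345-50080960 the scores were 2348 and 1325, the centres lay 2 bp apart, and Pol II was 145809 bp away. These 4 strongest sites ranked within the first 86 of both lists, and each was more than 10 kb from Pol II. The next 6 by the score with GATA1 ranked between 41 and 58 in that list, and their partners between 73 and 363 in the other. At chr5:74090101-74091211 a score of 2198 with GATA1 stood against 797.1 without, and at chr8:41501464-41502450 a score of 2127 stood against 864.7. The sites at chr10:91850800-91851498 and chr13:99265218-99266407 scored 1930 and 1821 with GATA1 and 1468 and 1434 without. Those at chr18:24835429-24836159 and chr13:111399261-111400177 scored 1618 and 1591 with GATA1 and 951.6 and 809.1 without. Of these 10 sites, 6 were also among the 10 with the highest partner scores.

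Among the other 4 sites with the highest partner scores, only that at chr9:33725748-33726517 stood far lower with GATA1. Its FoxP3 alone peak scored 1471, rank 71 of 5069, and its peak with GATA1 scored 210.2, rank 3827 of 9011. The rest ranked high in both lists. At chr2:98505953-98507917 the scores were 3100 for FoxP3 alone (tied at rank 1) and 1431 with GATA1 (rank 68). The site at chr17:9223385-9224562 had 1658 (rank 60) for FoxP3 alone and 1570 (rank 61) with GATA1. At chr11:20836270-20836930 the scores were 1351 (rank 82) and 1035 (rank 107). The reverse of the chromosome 9 site was seen at chr18:78394720-78395336. There the partner scored 96.2, the lowest of all 642, and the peak with GATA1 scored 636.7, rank 286. Other sites with very low partners were chr4:25399251-25399670 (113.3), chr16:3338520-3339614 (132.2) and chr13:116531927-116532717 (135.9). Their peaks with GATA1 scored 146.2, 241.6 and 254.9. The site at chr2:74529520-74530478 was near the bottom of both lists, with 169.6 for FoxP3 alone and 83.53 with GATA1. The lowest scores with GATA1 were 70.56 at chr6:23128053-23128627, 78.8 at chr14:79790021-79790616 and 83.32 at chr8:126092752-126093493. The fifth lowest was 85.93, at chr5:134298839-134299418. Their partners scored 268.6, 217.9, 225.7 and 236.5 and ranked between 4779 and 4956 of 5069.

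The FoxP3 peaks with and without GATA1 lay close to each other at these sites. The rule sets this in part, because it takes only overlapping peaks. Their centres lay a median of 67.2 bp apart (quartiles 25 and 115), and 70.2% (66.6 to 73.7) lay within 100 bp. At shared peaks with Pol II, which overlap by the same condition, the median was 74.5 bp and the share 63.8% (61.9 to 65.7). The difference was 6.43 percentage points (Newcombe 95% interval 2.34 to 10.3, counting error over peaks only). Peaks with GATA1 had median widths of 587.5 bp at the 642 sites and 633 bp at Pol II, and the partners 540.5 and 544 bp. For scores under 200 with GATA1, the centres lay 61.75 and 75 bp apart, at widths of 579.5 and 592 bp. At 1000 or more they lay 109.75 and 99.5 bp apart, at widths of 843 and 938 bp. Whether width has a part in the difference was not tested. In 42.1% of the sites (38.3 to 45.9) the FoxP3 alone peak lay wholly inside the peak with GATA1, in 15.1% (12.5 to 18.1) the reverse held, and in 42.8% each reached past the other. At Pol II the first 2 shares were 42.8% and 14.1%. The peak with GATA1 was the wider one at 426 sites, or 66.4% (62.6 to 69.9), against 69.8% (68.0 to 71.5) of shared peaks at Pol II. At the 642 sites the median width of the peak with GATA1 was 587.5 bp (521 to 706), against 540.5 bp (446 to 600) for the partner. Widths in both lists went together only weakly, with a Spearman's rho of 0.17 at these sites and 0.26 at shared peaks with Pol II.

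**Figure D3:**
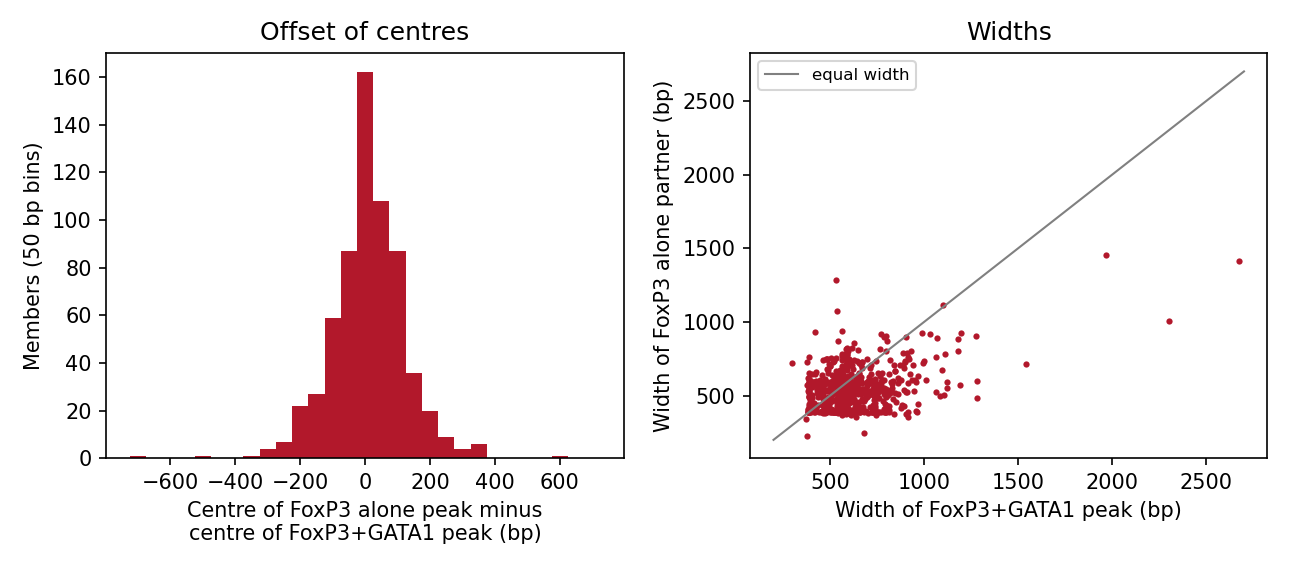
Left, histogram of the centre of the FoxP3 alone peak minus the centre of the FoxP3 and GATA1 peak (x axis, bp) over the 642 sites in 50 bp bins; right, width of each peak with GATA1 (x axis, bp) against that of its partner (y axis, bp), with the line of equal width. The offsets gather around 0 with 70.2% within 100 bp, and 66.4% of points lie below the line.

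Only 24 sites, or 3.74% (2.52 to 5.50), had centres more than 250 bp apart. Among the 5 largest offsets, 3 were sites whose partner overlapped a Pol II peak although the site itself did not. The largest, 699.5 bp, was at chr4:124334798-124335386, which shared 8 bp with its partner. The others were 489 bp at chr1:36996368-36996955 and 366.5 bp at chr5:112771353-112771951. The remaining pair were 595.5 bp at chr2:98503624-98505927 and 359 bp at chr11:35481800-35482392. In all, 6 of the 642 partners overlapped Pol II, which left 636 sites where both FoxP3 peaks were free of it. Besides those 3, they were at chr3:30993082-30993621, chr3:33919261-33919793 and chr1:172921774-172922207. The site at chr3:30993082-30993621 lay wholly inside a 1074 bp FoxP3 alone peak with a score of 891.7, against 186.3 with GATA1. At chr3:33919261-33919793 the partner was 1287 bp wide and scored 1019, against 256.4. In both cases the FoxP3 alone peak overlapped the adjoining Pol II peak and the peak with GATA1 stopped short of it, by 5 and 43 bp.

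The gap between a site and the nearest Pol II peak ranged from 5 to 1470908 bp. By the submitters' notes, Pol II was used to mark the starts of transcribed genes. No gaps were computed for random positions, so whether the sites are farther from Pol II than such positions was not tested. The median gap was 48836.5 bp (quartiles 14313 and 128563). Within 1 kb of a Pol II peak were 20 sites, or 3.12% (2.03 to 4.76), and within 5 kb 65, or 10.1% (8.02 to 12.7). A gap of at most 50 kb was found for 324 sites, or 50.5% (46.6 to 54.3), and a gap over 100 kb for 203, or 31.6% (28.1 to 35.3). The 3891 peaks found only with GATA1 and off Pol II had a median gap of 53863 bp, and the 1007 found only with FoxP3 alone had 43976 bp. The share within 5 kb was 1.21 points higher than in the first class (interval -1.09 to 3.92) and lower by 0.40 points than in the second (-3.34 to 2.71, with the sign of the shared sites minus the others). Over 100 kb the differences were -1.69 points (-5.47 to 2.29) and 4.01 points (-0.48 to 8.57). All 4 intervals included 0, but they cover counting error over peaks only, with 1 library per group. They do not show that the distances of the classes are equal, nor whether they differ beyond these libraries. The nearest Pol II peaks were of ordinary strength, with a median score of 122.5 beside 117.6 over the whole Pol II list.

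**Figure D4:**
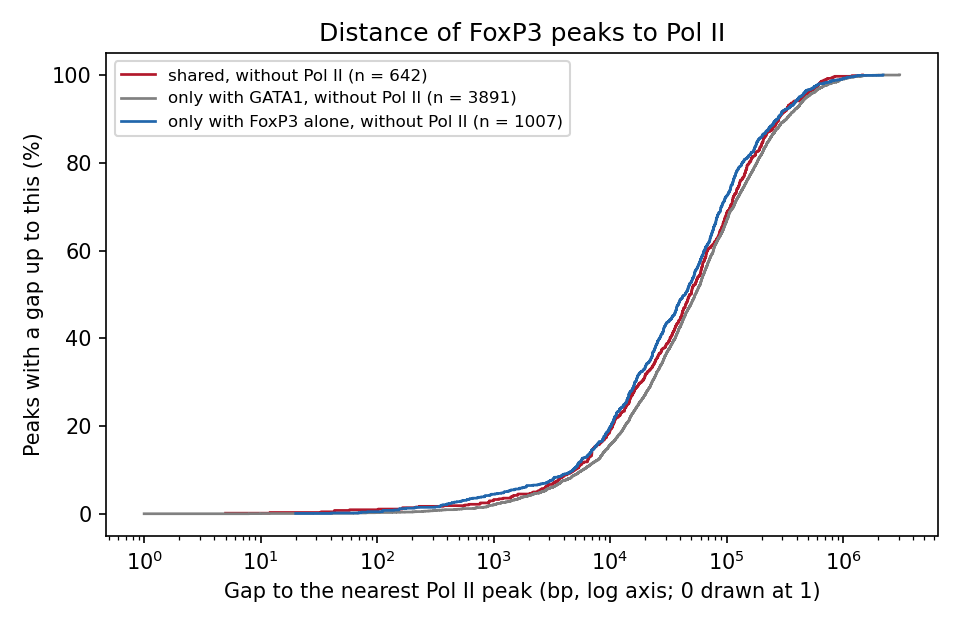
Cumulative share of FoxP3 peaks without Pol II overlap (y axis, percent) by gap to the nearest Pol II peak (x axis, bp, log scale), for the 642 shared sites, the 3891 peaks found only with GATA1 and the 1007 found only with FoxP3 alone. The 3 curves run close together, with medians of 48836.5, 53863 and 43976 bp.

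Distance from Pol II went with little change in the scores. The 65 sites within 5 kb had a median score of 186 with GATA1 and 402 with FoxP3 alone, and the 203 sites beyond 100 kb had 223 and 437. Spearman's rho of the gap with the 2 scores was 0.11 and 0.07 over the 642 sites, given as a description. The median gap was 41172.5 bp for sites scoring under 200 with GATA1 and 41482.5 bp at 1000 or more. In the classes of 200 to 500 and 500 to 1000 it was 61076 and 62282 bp. The centres of the FoxP3 peaks lay a median of 83.5 bp apart within 5 kb of Pol II and 60 bp beyond 100 kb. The farthest site from Pol II, chrX:63210491-63211175, had a gap of 1470908 bp. It scored 243.5 with GATA1 and 858.6 with FoxP3 alone. It was followed by chr7:68417967-68418354 (1190103 bp) and chr15:71568188-71568770 (849263 bp). The last of these scored 905.7 and 602.6, with its centres 24.5 bp apart. The other 2 of the 5 farthest were chr15:20394966-20395492 (821060 bp) and chr1:98360708-98361214 (796519 bp). At these 5 sites the centres of the FoxP3 peaks lay at most 90 bp apart.

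The sites scoring highest with GATA1 were also wide. The 26 sites scoring 1000 or more with GATA1 had a median width of 843 bp, against 579.5 bp for the 302 sites under 200. The 257 sites scoring 200 to 500 had 576 bp. Shared peaks at Pol II had 938 bp at 1000 or more and 592 bp under 200. Spearman's rho of score and width with GATA1 was 0.16 over the 642 sites and 0.27 at Pol II. For the partners of the 642 sites it was -0.10. Over 1 kb were 23 sites, or 3.58% (2.40 to 5.32), against 5.22% (4.42 to 6.16) of shared peaks at Pol II. Next to the chromosome 9 site, the widest were 2304 and 1965 bp at chr2:98503624-98505927 and chr2:98505953-98507917. Then came 1540 bp at chr12:96395660-96397199, with 1294 against 425.5 in score, and 1283 bp at chr16:24583281-24584563, with 624.3 against 326.5. The narrowest, 298 bp at chr10:60915835-60916132, still scored 491.7 with GATA1 and sat inside a 721 bp partner. The other narrow ones had 372 bp at chr12:7262324-7262695, 377 bp at chr16:75618165-75618541, 378 bp at chr17:79366009-79366386 and 380 bp at chr9:11242455-11242834. Among these, the chromosome 17 site had a strong partner, 224 bp wide with a score of 1147.

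The wide pair on chromosome 2 belonged to one dense region. With GATA1 it held 3 peaks, at chr2:98502208-98503396 (3100), chr2:98503624-98505927 (1168) and chr2:98505953-98507917 (1431). With FoxP3 alone it held 4, scoring 2062, 429.7, 411.5 and 3100 in order of position. A single Pol II peak at chr2:98502105-98503565, score 1236, covered the first of them only. The last 2 peaks with GATA1 were included because they began 58 and 2387 bp beyond that Pol II peak, and they lay 25 bp from each other. Whether the sequence here is repeated in the genome was not analysed here, so its peaks were not told apart from reads of other copies. Without this region 640 sites remained, and the median scores were 205 and 416.

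The sites were mostly scattered. Joined across gaps of up to 50 kb, 24 of them, or 3.74%, fell into 11 groups, of which 2 held 3 sites and 9 held 2. The share was 1.79% of 336 sites with scores of 200 or more in both FoxP3 lists and 1.98% of 405 with lists of equal length. With no Pol II within 5 kb it was 2.43% of 577. A smaller set holds fewer neighbours to join, and no share at equal numbers of sites was computed. A group of 3 lay at chr5:112764471-112771951 with GATA1 scores between 141.3 and 277.2 and partner scores between 343.5 and 433.3. No Pol II peak lay between its sites and 5 lay within 50 kb. The other, at chr8:126072508-126106843, had low scores, at most 190.0 with GATA1 and at most 246.0 for the partners, with 2 Pol II peaks between its sites. Close pairs without a Pol II peak between them or within 50 kb lay at chr9:83821482-83833818, chr16:75597340-75618541 and chr7:141130203-141172002. The first held a strong site, with a top score of 754.9 with GATA1 and 1054 with FoxP3 alone. Any other FoxP3 peak with GATA1 lay within 50 kb of 34.3% of the sites (30.7 to 38.0), against 38.4% (36.5 to 40.3) of shared peaks at Pol II. That difference of -4.09 points had an interval of -8.13 to 0.11. The nearest such neighbour was itself one of the 642 for 45 sites, or 7.01% (5.28 to 9.25), close to their share of 7.12% in the list.

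The sites were found on 20 chromosomes, all autosomes and X, with 14 on chromosome 19 and 48 each on chromosomes 1 and 6. Among the shared peaks of a chromosome, the share without Pol II ran from 13.8% (9.86 to 19.0) on chromosome 4, with 30 of 217, to 25.5% (17.8 to 35.2) on chromosome X, with 24 of 94. Chromosome 4 was the only one whose interval did not hold the overall 20.2%, and the intervals were not adjusted for the number of chromosomes. Chromosome X held 3.74% of the sites (2.52 to 5.50) and 2.42% of all FoxP3 peaks with GATA1. Chromosome Y held none, and no shared peak.

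**Figure D5:**
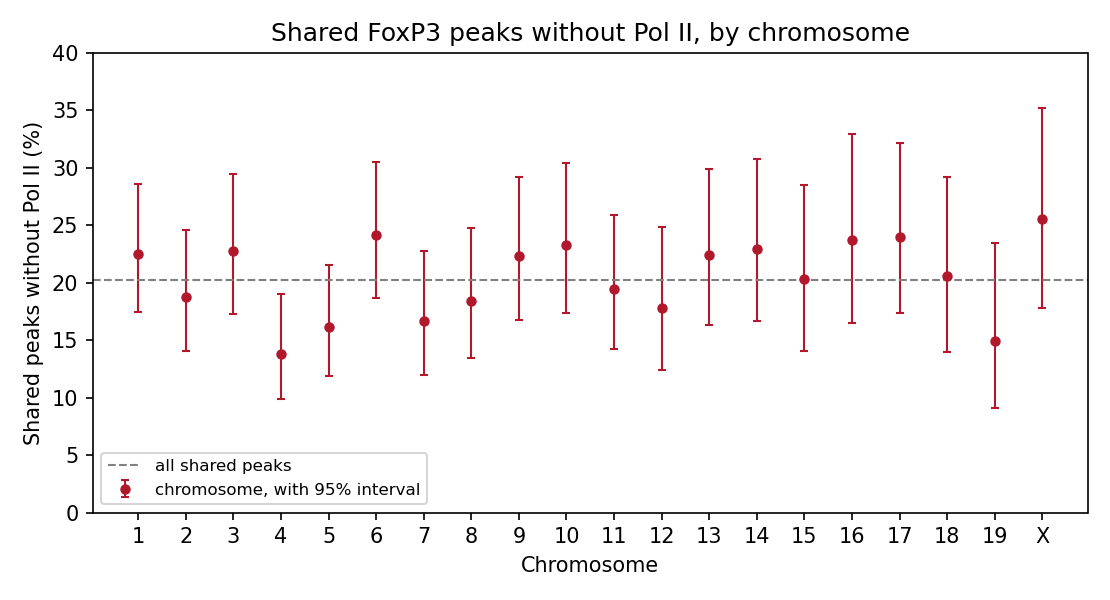
Share of shared FoxP3 peaks without a Pol II peak on each chromosome (y axis, percent); bars are Wilson 95% intervals and the dashed line is the share over all shared peaks, 20.2%. Values run from 13.8% on chromosome 4 to 25.5% on chromosome X, and all intervals but that of chromosome 4 hold the dashed line.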

How the data were processed

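Each precipitated library has its own peak list with a score per peak, deposited by the authors. The tools named in the submitters' processing notes are FastQC, Bowtie and MACS 1.4.0rc2, and the build named there, in doubt as described above, is mm8. Settings, the Bowtie version and read filters are not stated there. By their names, all 3 lists were called over the same extract lane. The lowest deposited score was 70.56 in the FoxP3 and GATA1 list, 70.75 in the FoxP3 alone list and 50.02 in the Pol II list, so a Pol II peak could be weaker than any FoxP3 peak. No read counts are in the lists, so depth is unknown.

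Overlaps, gaps between edges and distances between centres were computed with pandas 2.3.3, numpy 2.4.6, statsmodels 0.14.6 and scipy 1.17.1 under Python 3.11.15. The partner of a site was the FoxP3 alone peak with the longest overlap. The code was tested on simulated data, and bedtools 2.31.1 gave the same 642 sites and gaps. Ranks were taken within each list. No test across samples could be made with 1 library per group. The sites and measures were chosen with earlier results of these data known. Named sites are the 10 highest in each list, the 5 lowest in each, the 5 widest and narrowest, the 5 nearest to and farthest from Pol II, the 5 largest offsets, sites with several partners, and groups of 3 or more. The 6 sites whose partner overlapped Pol II, the 3 pairs without Pol II within 50 kb and the chromosome 2 region were singled out after their values were seen. Planned counts of nearby genes and motifs were not run. Alternatives changed the overlap, the scores, the list length, the distance to Pol II and the peaks left out.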

Additional observations from a re-analysis of the deposited data

How the results depend on the processing

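Depth is unknown and each group has a single library, so the list length and the scores could shift with sequencing alone. No paired analysis was possible because only 1 library stood for each group. Of 125 values under 14 alternatives, 101 stayed within the interval of the reported value (within 1.5 times for the number of sites) and 24 did not. Of the alternatives, 4 were chosen after seeing the data: a gap of 5 kb, a partner off Pol II, no chromosome 2 region and no FoxP3 peak over 1000 bp. With scores of 200 or more in both FoxP3 lists there were 336 sites, 16.0% of shared peaks, with median scores of 288 and 453, a width of 610 bp, a Pol II gap of 58086.5 bp, 7.14% within 5 kb and 1.79% in groups. With the FoxP3 and GATA1 list at the length of the other there were 405 sites, 17.1% of shared peaks, with scores of 266 and 445, a gap of 60221 bp and 1.98% in groups. With scores of 100 or more in all lists, which removes weak Pol II peaks, there were 902 sites, or 29.0% of shared peaks. Their gap was 72389 bp and 6.43% lay within 5 kb. Setting the Pol II list alone at the lowest FoxP3 score gave 701 sites, or 22.1%. Requiring no Pol II within 1 kb left 7.23% within 5 kb; requiring none within 5 kb gave 18.2% of shared peaks, a gap of 60167 bp and 2.43% in groups. With 50% of the shorter peak overlapping, 14.4% lay within 5 kb. Counted in the FoxP3 alone list the median width was 539.5 bp. Apart from what each setting removes by construction, the cause was not tested. The distance between centres stayed between 62.5 and 70 bp.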
